A study of Mus musculus with 21 samples.

Results

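The C-type lectin receptors of macrophages were described here as 10 genes of the count table, taken by gene name: Mrc1, Clec10a, Mgl2, Clec7a, Clec4n, Clec4d, Clec4e, Clec4a2, Clec12a and Clec5a. The table held 47069 genes, of which 14473 passed the expression filter and were tested, the 10 lectin receptor genes among them. The libraries came from bone marrow-derived macrophages of C57BL/6 mice, which had matured from marrow precursors over 5 days under M-CSF and then received cytokine, or none, for 36 h. There were 7 groups of 3 libraries: cells labelled Cx3cr1CRExGata3fl/fl with IL-33 or without cytokine, cells labelled ST2-/- with IL-33 or without cytokine, and wild-type cells with IL-33, with IL-4 or without cytokine. In the Cx3cr1CRExGata3fl/fl label Cre recombinase is driven from Cx3cr1 and acts on floxed Gata3, so any deletion depends on cells that have used Cx3cr1; ST2 is the IL-33 receptor chain encoded by Il1rl1. The labels give neither the age of the mice nor whether replicate libraries came from separate mice, so a p-value reflects only how far these libraries vary, and part of that variation may be technical.

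C-type lectin receptors are surface proteins through which macrophages bind sugars and other ligands on microbes, dead cells and glycoproteins. Some are mainly endocytic, some recruit the kinase Syk through an activating motif of their own or of an adaptor such as the Fc receptor gamma chain or DAP12, and others carry an inhibitory motif that recruits phosphatases. In mice, Mrc1 and the galactose-type lectins are widely used as markers of macrophages activated by IL-4, whereas Clec4e and its neighbours are known for induction by inflammatory stimuli.

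The endocytic receptors are Mrc1, the mannose receptor (ENSMUSG00000026712, chr2:14229392-14332057, plus strand), and 2 galactose-type lectins. These are Clec10a (ENSMUSG00000000318, chr11:70156197-70170834) and Mgl2 (ENSMUSG00000040950, chr11:70130329-70137550), both on the plus strand and 18.6 kb apart. The other 7 genes lie on chromosome 6 of GRCm38. Clec4a2 (ENSMUSG00000030148, chr6:123106428-123143999), Clec4n (ENSMUSG00000023349, chr6:123229843-123247021), Clec4d (ENSMUSG00000030144, chr6:123262111-123275265) and Clec4e (ENSMUSG00000030142, chr6:123281789-123289870, minus strand) are neighbours, with 85.8, 15.1 and 6.52 kb between successive genes. Clec12a (ENSMUSG00000053063, chr6:129342691-129365303) and Clec7a (ENSMUSG00000079293, chr6:129461591-129472779, minus strand) lie 96.3 kb apart, and Clec5a (ENSMUSG00000029915, chr6:40574894-40585821, minus strand) stands alone. GENCODE M21 lists Clec7a as a polymorphic pseudogene and the other 9 as protein-coding, and no exon of the 10 overlapped an exon of another gene. Of the 50-base stretches in the exons, 9.02% in Clec10a, 13.1% in Mgl2 and 6.83% in Clec4a2 also occurred in another gene, mainly each other for the first pair and Clec4a4 for Clec4a2. The split of reads between such copies is uncertain to that extent.

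RefSeq promoter sequences (build GRCm38.p6) were found for 8 of the 10 genes, and the 250 bases before the start were searched on both strands. The motifs were a STAT6-type site (TTCNNNNGAA), a STAT-type site (TTCNNNGAA), an AP-1 site (TGANTCA), a C/EBP site (TTNNGNAA), a PU.1 site (AGGAAG) and an NF-kB site (GGGNNTTNCC). The STAT6-type letters, the form bound by the factor that IL-4 activates, stood in 2 of the 8, Clec7a and Clec5a, and in 5.85% of all 32851 promoters. The C/EBP letters stood in 7 and the PU.1 letters in 5 of the 8, against 36.8% and 29.5% of all promoters. The STAT-type letters stood in Clec4a2 (7.02% of all promoters), the AP-1 letters in Clec12a (6.75%) and the NF-kB letters in none of the 8 (4.11%). A C/EBP match can overlap a STAT-type match. Upstream bases are shown, 5' to 3', for both genes with the STAT6-type letters, in capitals, and for Mgl2, the gene of the 10 that rose most with IL-4 and that held no such letters in this window.
Clec7a (chr6:129472780-129473029, minus strand): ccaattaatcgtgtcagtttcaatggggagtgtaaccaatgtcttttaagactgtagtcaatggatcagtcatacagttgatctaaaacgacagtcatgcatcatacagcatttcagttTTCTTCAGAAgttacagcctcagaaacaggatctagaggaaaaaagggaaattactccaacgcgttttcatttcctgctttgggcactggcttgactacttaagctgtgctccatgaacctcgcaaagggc
Clec5a (chr6:40585822-40586055, minus strand): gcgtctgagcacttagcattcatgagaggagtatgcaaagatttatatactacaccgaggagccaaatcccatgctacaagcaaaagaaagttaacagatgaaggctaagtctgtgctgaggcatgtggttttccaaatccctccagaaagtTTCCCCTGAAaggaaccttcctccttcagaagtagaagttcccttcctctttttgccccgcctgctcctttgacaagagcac
Mgl2 (chr11:70130107-70130328, plus strand): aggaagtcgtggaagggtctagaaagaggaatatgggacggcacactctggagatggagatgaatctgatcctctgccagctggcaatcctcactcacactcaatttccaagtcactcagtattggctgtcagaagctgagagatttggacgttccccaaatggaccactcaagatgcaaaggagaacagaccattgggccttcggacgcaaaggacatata
A match in these letters is a description of the sequence and not evidence that a factor bound there, and a window without the letters says nothing of the factor.

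Each library held 32.6 to 48.7 M counted reads, and the mean correlation of a library with its replicates was 0.987 or more. Levels are given as CPM, a gene's counts relative to all counts of its library after scaling between libraries. The 10 macrophage markers examined were all present in every library, with levels between 27.1 CPM for Mertk in the lowest library and 31490 CPM for Lyz2 in the highest. The targeted genes were not reduced under their own labels. Il1rl1 averaged 17.4 ± 2.95 CPM in untreated cells labelled ST2-/- and 15.7 ± 1.45 CPM in untreated wild-type cells (SD, n = 3 each), and Gata3 held only 4 to 37 counts over the 3 libraries of any group. Those were 37 and 32 in the Cx3cr1CRExGata3fl/fl groups, 17 to 23 in wild-type groups and 4 in each ST2-/- group. With IL-33, Il1rl1 averaged 6.44 ± 1.12 CPM in Cx3cr1CRExGata3fl/fl cells and 15.75 ± 1.14 CPM in wild-type cells. The part of that difference in the lectin receptor levels was not tested. Counts summed over a gene can miss a deleted exon. Neither deletion was checked by these values, and ST2-/- and Cx3cr1CRExGata3fl/fl are used below as labels. All 6 Cx3cr1CRExGata3fl/fl libraries had Xist at 277 to 376 CPM and the other 15 at most 0.0462 CPM, while the Y-linked gene Ddx3y had the opposite pattern. Sex and genotype therefore cannot be told apart wherever Cx3cr1CRExGata3fl/fl cells are set against wild-type cells.

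**Figure D1:**
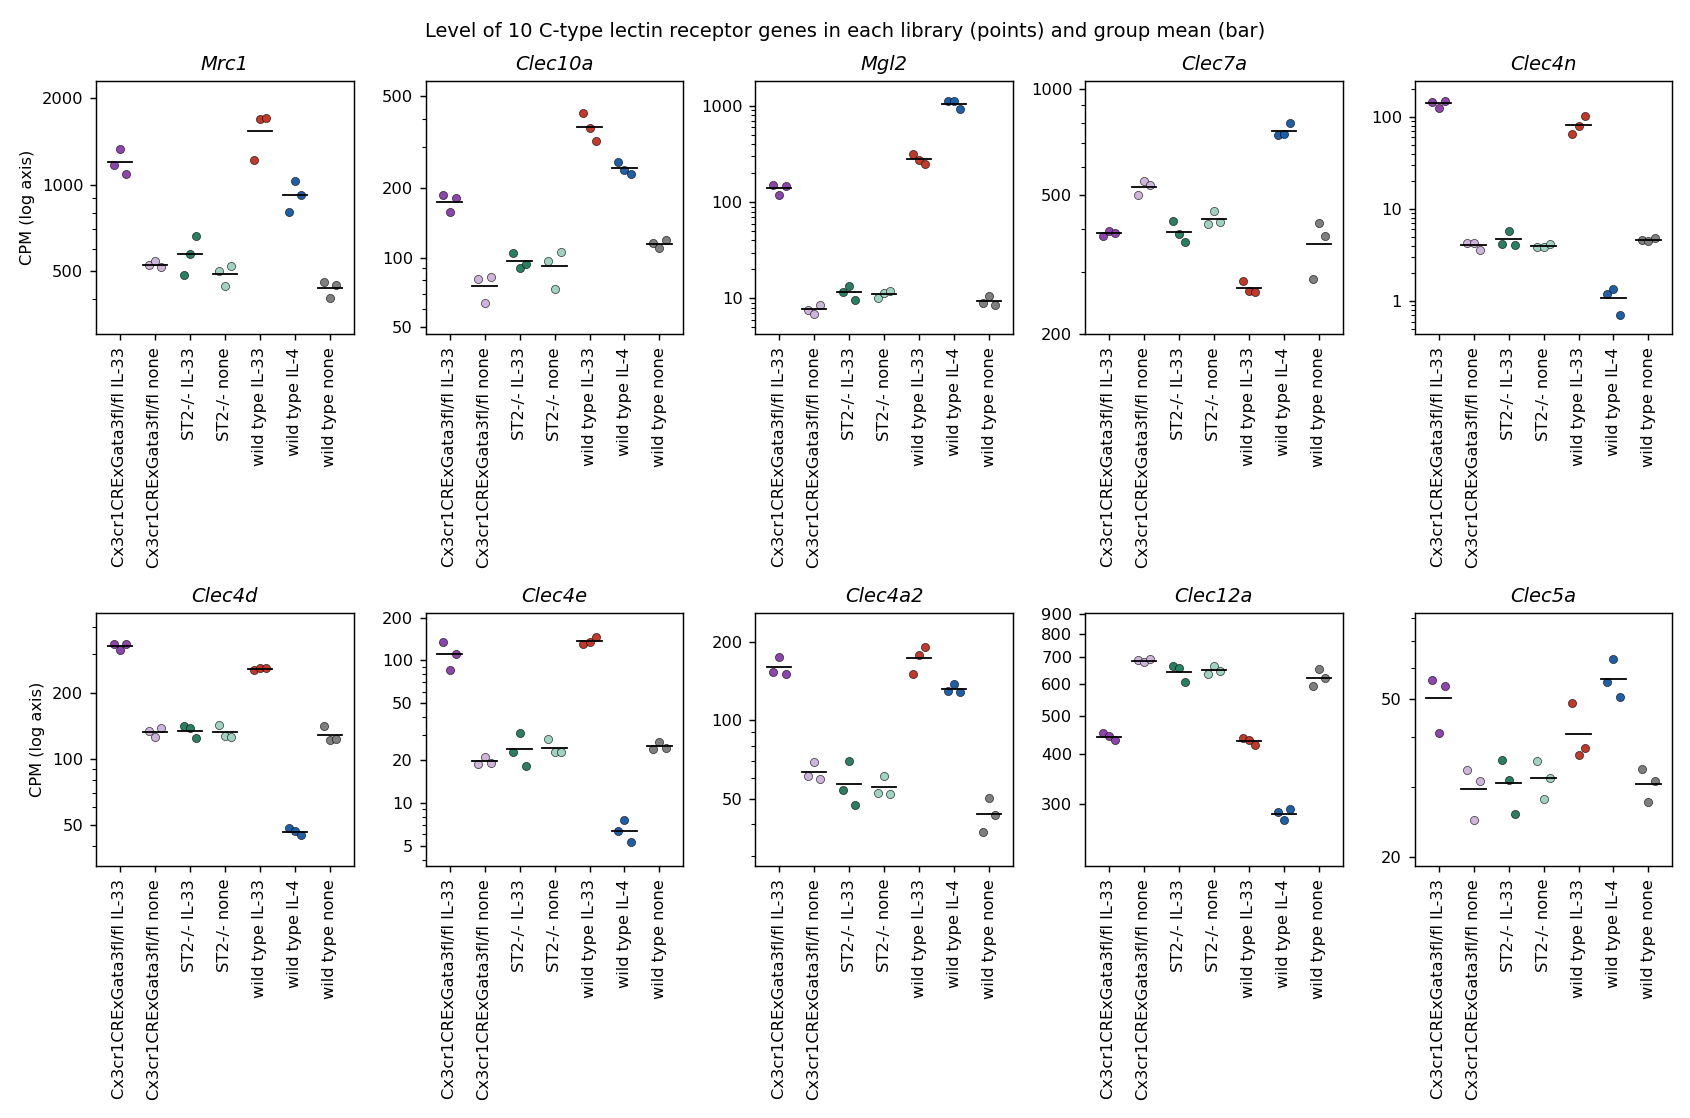
Level of each of the 10 genes in CPM (vertical log axis, its range differing between panels) in each of 21 libraries (points) with the mean of 3 (bar), by labelled genotype and cytokine. Mgl2, Clec7a and Clec5a had their highest group mean with IL-4, and Clec4n, Clec4d, Clec4e and Clec12a their lowest. The pairs of groups labelled ST2-/- lay close together for every gene.

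The first comparison asked how the receptors of wild-type macrophages responded to IL-33, an alarmin of the IL-1 family. With IL-33, 8 of the 10 genes rose and 2 fell relative to no cytokine, where 35.4% of all tested genes were called (18.5% higher and 16.9% lower). Mgl2 and Clec4n rose most, 29.9-fold and 17.5-fold, and the smallest change was the 1.33-fold fall of Clec7a. The median log2 change of the 10 genes was 1.75, against -0.000909 over all tested genes. In all 10 the libraries of the 2 groups did not overlap, as in 46.4% of tested genes. In bulk libraries, fewer cells that express a gene and less RNA per cell cannot be told apart.

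The second comparison asked the same of IL-4, the type 2 cytokine that acts through STAT6. With IL-4, 6 genes rose and 4 fell relative to no cytokine, where 47.6% of all tested genes were called (25.1% higher and 22.5% lower). Mgl2 rose 113-fold, and Clec4n, Clec4d, Clec4e and Clec12a were lower than in untreated cells. The median log2 change was 0.98 over the 10 genes and 0.00477 over all tested genes. The IL-4 and untreated libraries did not overlap for any of the 10, as in 56.1% of tested genes. Both comparisons share the untreated wild-type libraries, so the 2 cytokines were also set against each other directly. There, 7 of the 10 genes were higher with IL-33 and 3 with IL-4, where 39.9% of all tested genes were called (19.2% higher and 20.7% lower with IL-33). In all 10 the IL-33 and IL-4 libraries did not overlap, as in 49% of tested genes.

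**Figure D2:**
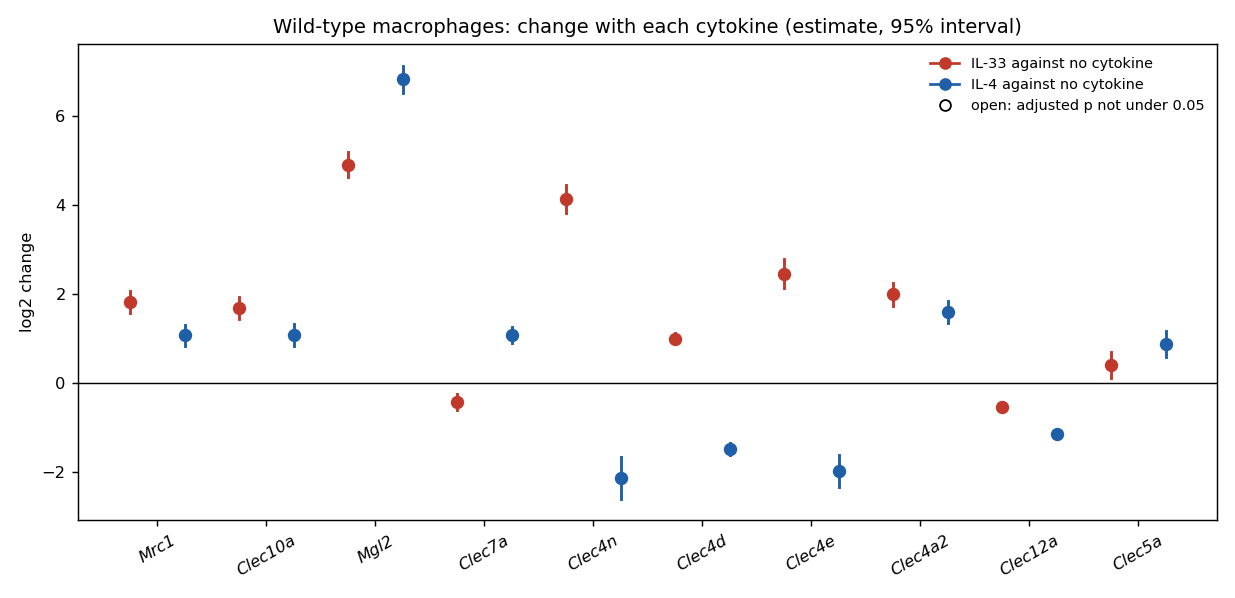
Log2 change of each gene with IL-33 (red) and with IL-4 (blue) against no cytokine in wild-type cells, 3 libraries per group. Points are estimates and lines are 95% intervals. Clec4n, Clec4d and Clec4e lay above 0 with IL-33 and below 0 with IL-4, Clec7a lay below 0 with IL-33 and above 0 with IL-4, and the other 6 genes lay on 1 side of 0 with both.

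Mrc1, an endocytic receptor for mannose-rich glycoproteins, had 1220, 1689 and 1709 CPM with IL-33, 804, 1028 and 923 CPM with IL-4 and 458, 406 and 448 CPM in untreated wild-type cells. Every library with a cytokine lay above every untreated one, and the IL-33 libraries above those with IL-4. The log2 change was 1.82 ± 0.12 with IL-33 (SE, edgeR adjusted p = 5.64e-11) and 1.07 ± 0.12 with IL-4 (adjusted p = 8.22e-08). Clec10a, a galactose-type lectin, had 423, 365 and 320 CPM with IL-33, 261, 239 and 231 CPM with IL-4 and 116, 110 and 119 CPM in untreated cells. It kept the same order of groups, 3.21-fold above untreated cells with IL-33 and 2.12-fold with IL-4. The direct comparison put Mrc1 1.68-fold (adjusted p = 1.62e-05) and Clec10a 1.52-fold (adjusted p = 0.000189) higher with IL-33 than with IL-4.

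Mgl2, the neighbouring galactose-type lectin that binds N-acetylgalactosamine, had 320, 271 and 246 CPM with IL-33, 1124, 1115 and 922 CPM with IL-4 and 8.91, 10.6 and 8.52 CPM in untreated wild-type cells. Its order differed from that of Clec10a, since each IL-4 library stood above each IL-33 library. The log2 change was 4.90 ± 0.14 with IL-33 (adjusted p = 1.45e-16) and 6.82 ± 0.15 with IL-4 (adjusted p = 3.22e-19). Between the cytokines Mgl2 was 3.77-fold lower with IL-33 than with IL-4 (log2 change -1.92 ± 0.11, adjusted p = 4.75e-12). In mice Mgl2 is also used as a marker of a dendritic cell subset. The summed level of 10 dendritic cell markers was 140 to 222 CPM with IL-33, 864 to 1271 CPM with IL-4 and 53.5 to 101 CPM in untreated cells. With IL-4, Itgax (988 CPM, against 63.6 CPM in untreated cells), Batf3 (34.5 against 4.09 CPM) and Zbtb46 (2.06 against 0.152 CPM) rose and Siglech fell. The other 6 did not pass the test and averaged 0.247 to 1.32 CPM with IL-4. Itgax made up most of the sum, and macrophages also express it. The part of such cells in the rise of Mgl2 was not tested.

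Clec7a encodes Dectin-1, which binds fungal beta-glucan and signals to Syk through its own motif. It had 284, 266 and 264 CPM with IL-33, 742, 745 and 798 CPM with IL-4 and 287, 416 and 380 CPM in untreated wild-type cells. The IL-4 libraries stood clear of the rest, whereas untreated replicate 1 lay only just above the highest IL-33 library. Clec7a rose 2.11-fold with IL-4 (log2 change 1.08 ± 0.09, adjusted p = 6.06e-10) and fell by 0.41 on the log2 scale with IL-33 (SE 0.09, adjusted p = 0.000578). Clec5a, a receptor that signals through DAP12 and DAP10, had 48.8, 36.2 and 37.7 CPM with IL-33, 55.3, 63.1 and 50.7 CPM with IL-4 and 33.3, 27.4 and 31.0 CPM in untreated cells. It rose 1.84-fold with IL-4 (adjusted p = 1.49e-05) and 1.34-fold with IL-33 (log2 change 0.42 ± 0.14, adjusted p = 0.0230). The rise with IL-33 was not called when IL-33 replicate 1 or untreated replicate 2 or 3 was left out (log2 change 0.27 to 0.43, adjusted p = 0.0507 to 0.165, over all alternatives 6.66e-07 to 0.165). Clec5a was 1.38-fold lower with IL-33 than with IL-4 (adjusted p = 0.00955). That call was lost without IL-33 replicate 2 or 3 or IL-4 replicate 2 (log2 change -0.39 to -0.36, adjusted p = 0.0567 to 0.0718, over all alternatives 2.3e-08 to 0.0718).

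The neighbours Clec4n, Clec4d and Clec4e had the largest differences between the cytokines among the 10. Clec4n encodes Dectin-2, which binds mannans of fungi and pairs with the Fc receptor gamma chain. It had 64.8, 78.9 and 102 CPM with IL-33, 1.20, 1.36 and 0.710 CPM with IL-4 and 4.65, 4.49 and 4.86 CPM in untreated wild-type cells. The 3 groups were far apart, although the IL-4 libraries rest on only 38, 56 and 32 counts. The log2 change was 4.13 ± 0.15 with IL-33 (adjusted p = 1.16e-14) and -2.12 ± 0.22 with IL-4 (adjusted p = 5.65e-08), and Clec4n was 76.1-fold higher with IL-33 than with IL-4.

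Clec4e encodes Mincle, a receptor for mycobacterial cord factor and for a nuclear protein released by dying cells. It had 130, 134 and 146 CPM with IL-33, 6.35, 7.52 and 5.31 CPM with IL-4 and 23.7, 26.6 and 24.4 CPM in untreated wild-type cells. Its libraries formed the same order of groups as those of Clec4n, with IL-4 lowest and IL-33 highest. The log2 change was 2.46 ± 0.15 with IL-33 (adjusted p = 2.74e-11) and -1.96 ± 0.17 with IL-4 (adjusted p = 3.41e-09). Clec4d, which encodes the partner of Mincle at the cell surface, had 254, 259 and 259 CPM with IL-33, 48.1, 46.8 and 44.7 CPM with IL-4 and 142, 121 and 123 CPM in untreated cells. Its 3 groups stood in the same order, again without overlap. Clec4d had a log2 change of 1.00 ± 0.06 with IL-33 (adjusted p = 2.74e-11) and was 2.76-fold lower with IL-4 than without cytokine (adjusted p = 2.89e-14). Between the cytokines, Clec4e and Clec4d were 21.4-fold and 5.53-fold higher with IL-33.

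Both receptors with an inhibitory motif changed, and in opposite directions. Clec4a2, which encodes DCIR, had 151, 179 and 191 CPM with IL-33, 129, 138 and 129 CPM with IL-4 and 37.3, 50.4 and 43.2 CPM in untreated wild-type cells. All libraries with either cytokine lay well above the untreated ones, with a rise of 3.98-fold with IL-33 (adjusted p = 1.88e-11) and 3.02-fold with IL-4 (adjusted p = 2.45e-10), and IL-33 stood 1.32-fold above IL-4 (adjusted p = 0.00880). Clec12a, a receptor for uric acid crystals, had 438, 435 and 422 CPM with IL-33, 286, 274 and 291 CPM with IL-4 and 593, 655 and 621 CPM in untreated cells. Its groups were well separated in the order IL-4, IL-33, untreated. Clec12a fell by 0.53 on the log2 scale with IL-33 (SE 0.04, adjusted p = 2.38e-09) and by 1.13 with IL-4 (SE 0.04, adjusted p = 3.8e-15).

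Marker lists of macrophages and of other cells moved beside the receptors with both cytokines. The summed level of 8 monocyte markers was 741 to 1097 CPM with IL-33 and 278 to 323 CPM in untreated wild-type cells, and 7 of the 8 rose. Of 12 neutrophil markers, 11 were tested and 8 rose, with sums of 380 to 526 CPM with IL-33 and 122 to 135 CPM without. Most of these sums came from F13a1 and Ccr2 for monocytes and from Csf3r and Mmp8 for neutrophils. Ly6g, also on the neutrophil list, averaged at most 1 count per library in every group. Of the 10 dendritic cell markers 6 rose, and of the 10 macrophage markers 5 rose and 2 fell with IL-33. With IL-4 the sum of the 10 macrophage markers, taken over the 11 count rows with these names, was 14960 to 16520 CPM. It was 28430 to 31340 CPM in untreated cells, and of the 10 tested markers 3 rose and 6 fell (median log2 change -0.81). The monocyte sum was 510 to 569 CPM with IL-4, with 1 of 8 higher and 4 lower, and the neutrophil sum was 206 to 217 CPM, with 3 of 11 higher and 6 lower. The sum of 11 lymphocyte markers was 319 to 328 CPM with IL-4, against 171 to 202 CPM in untreated cells, with 1 of the 7 tested higher and 1 lower. The part of these cells in the changes of the lectin receptors was not tested.

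Levels per length of exon allow only a rough comparison between genes. The length is that of all annotated exons of a gene, not of the transcripts present here. Sequence shared by Clec10a and Mgl2 limits their levels further. In untreated wild-type cells Clec7a and Clec12a led, at 137 ± 25.3 and 113 ± 5.65 CPM per kb of exon (SD, n = 3), and their libraries overlapped. Clec4d (80.4), Mrc1 (68.6), Clec10a (39.7), Clec4a2 (14.9) and Clec5a (7.96 CPM per kb) followed, each with no overlap with the next. Clec4e (5.02) and Mgl2 (4.46) overlapped each other, and Clec4n was lowest at 3.28 CPM per kb. With IL-33 Mrc1 led at 242 ± 43.4 CPM per kb, ahead of Clec4d at 161 ± 1.59. Mgl2 and Clec10a came next at 133 and 127 CPM per kb, with overlapping libraries. With IL-4 Mgl2 led at 503 ± 54.5 CPM per kb, which was 43.3% of the summed level of the 10 genes, and Clec7a held 24.8% of that sum. The sum of the 10 was 999 ± 23.5 CPM per kb with IL-33, 1162 ± 49.9 with IL-4 and 474 ± 21.4 in untreated wild-type cells.

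**Figure D3:**
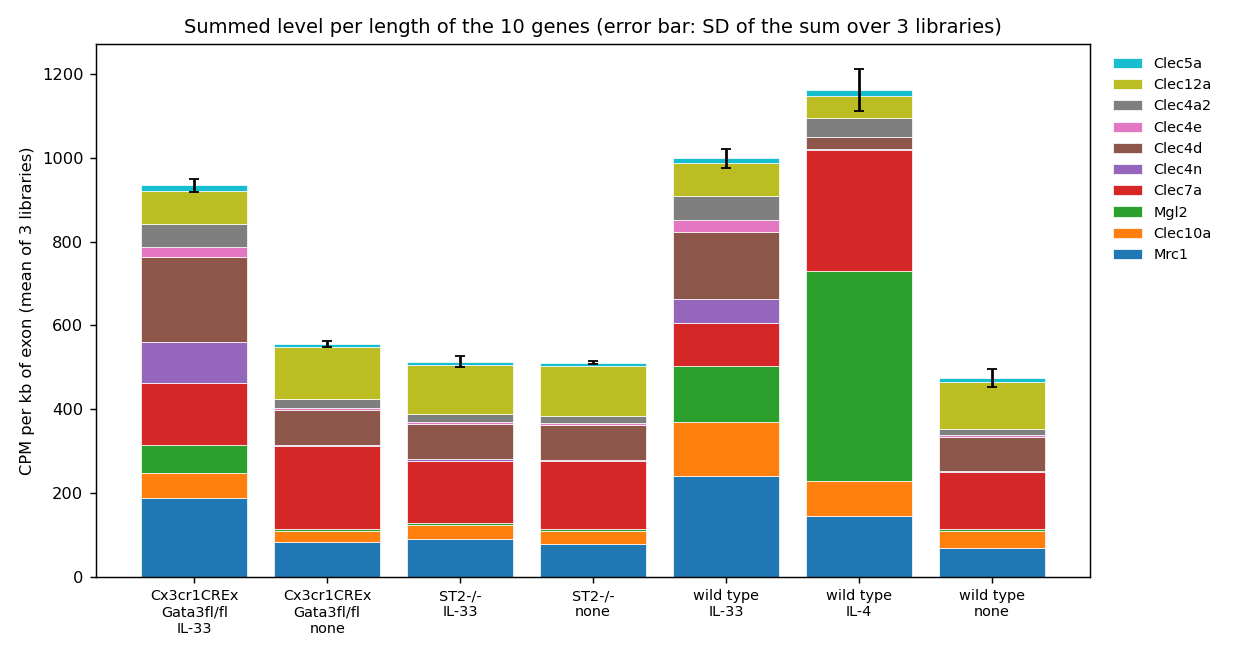
Stacked mean level of the 10 genes in CPM per kb of exon, for the 7 groups of 3 libraries. Error bars are the SD of the sum over 3 libraries. The sum was 935 in Cx3cr1CRExGata3fl/fl cells with IL-33 and 555 without cytokine, and 514 and 511 in ST2-/- cells with IL-33 and without cytokine, beside 999 with IL-33, 1162 with IL-4 and 474 without cytokine in wild-type cells, and the green block of Mgl2 is the largest with IL-4.

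The comparison of IL-33 with no cytokine in cells labelled ST2-/- asked whether the response depended on the IL-33 receptor chain. None of the 10 genes was called by edgeR, none had an unadjusted p under 0.05, and DESeq2 and limma-voom also called 0; over all tested genes 0% were called. Mgl2 had 11.7, 13.6 and 9.70 CPM with IL-33 and 10.1, 11.4 and 12.0 CPM without cytokine in these cells. Clec4n had 4.21, 5.78 and 4.04 CPM with IL-33 and 3.89, 3.86 and 4.21 CPM without. The groups overlapped for both genes, as they did for the other 8, against 6.96% of tested genes without overlap. The largest estimates were those of Clec4n (log2 change 0.24, 95% interval -0.13 to 0.60) and Mrc1 (0.23, -0.01 to 0.47). Mrc1 had 488, 575 and 666 CPM with IL-33 and 502, 446 and 523 CPM without. The narrowest interval was that of Clec12a (log2 change -0.01, -0.10 to 0.08).

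The difference between the IL-33 response of ST2-/- cells and that of wild-type cells was tested directly as an interaction. It was called for 8 of the 10 genes, 7 with a lower change in ST2-/- cells and Clec12a with a higher one, where 22.7% of all tested genes were called (10.6% higher and 12.1% lower). The difference was -4.84 ± 0.19 on the log2 scale for Mgl2 (adjusted p = 1.64e-13), -3.89 ± 0.23 for Clec4n (adjusted p = 6.71e-11) and -2.48 ± 0.22 for Clec4e (adjusted p = 1.69e-08). It was -1.95 for Clec4a2, -1.61 for Clec10a, -1.58 for Mrc1, -0.98 for Clec4d and 0.52 for Clec12a. Clec7a (0.29 ± 0.12, adjusted p = 0.0974) and Clec5a (-0.46 ± 0.20, adjusted p = 0.106) did not pass. Leaving out untreated wild-type replicate 1, the low Clec7a library, gave Clec7a a difference of 0.43 (adjusted p = 0.000628, over all alternatives 0.000628 to 0.300).

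With IL-33 in both, all 10 genes differed between ST2-/- and wild-type cells, 2 higher and 8 lower in ST2-/- cells, where 37% of all tested genes were called (17.9% higher and 19.1% lower). Clec7a (1.44-fold, adjusted p = 3.88e-05) and Clec12a (1.49-fold, adjusted p = 6.19e-10) were the higher pair. Mgl2 was 23.9-fold and Clec4n 17.4-fold lower in ST2-/- cells. Of the markers, 8 of 8 for monocytes were lower in ST2-/- cells, as were 8 of 11 for neutrophils with 1 higher, and their part was not tested. Clec5a was 1.33-fold lower (adjusted p = 0.0235). That call was lost without ST2-/- replicate 3 or wild-type replicate 1 with IL-33 (log2 change -0.30 and -0.27, adjusted p = 0.133 and 0.169, over all alternatives 8.27e-07 to 0.169). Without cytokine, none of the 10 was called by edgeR, DESeq2 or limma-voom, and 3 had an unadjusted p under 0.05, where 1.35% of tested genes were called (0.871% higher and 0.484% lower). Those 3 were Clec4a2 (log2 difference 0.34 ± 0.12), Clec7a (0.24 ± 0.09) and Clec10a (-0.32 ± 0.12), with adjusted p = 0.172, 0.176 and 0.186. Clec7a passed without untreated wild-type replicate 2 (0.36, adjusted p = 0.0317, over all alternatives 0.000478 to 0.609). The low end of that range came from edgeR with no expression filter.

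**Figure D4:**
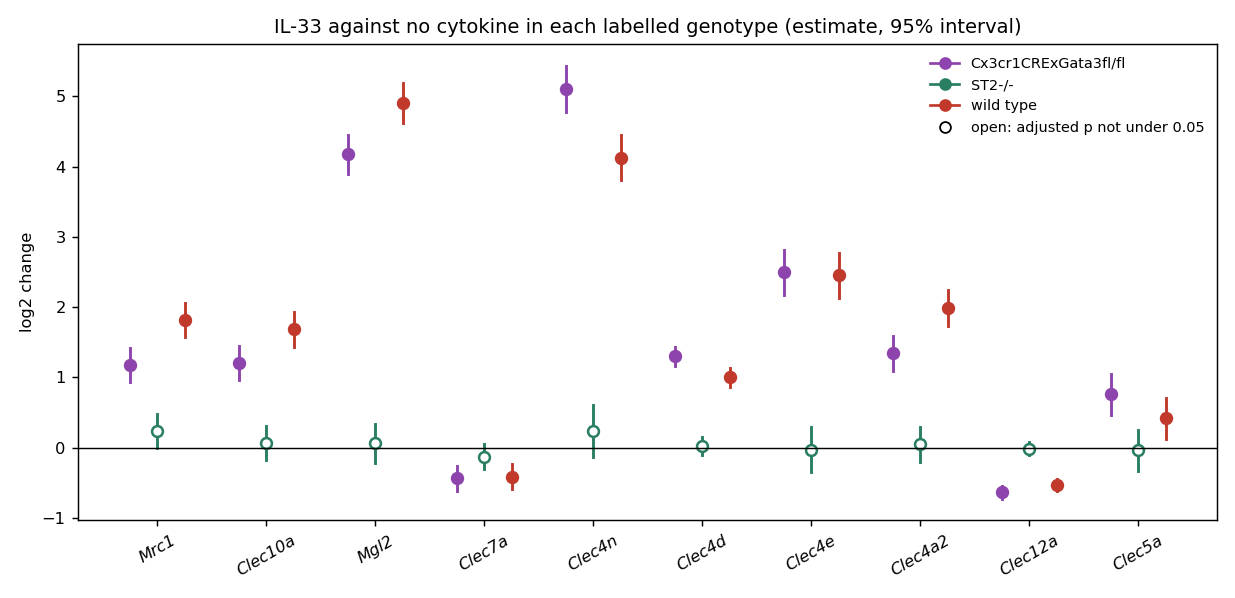
Log2 change of each gene with IL-33 against no cytokine in cells labelled Cx3cr1CRExGata3fl/fl (purple), ST2-/- (green) and wild type (red), 3 libraries per group. Points are estimates, lines are 95% intervals and open points did not pass an adjusted p of 0.05. The points of ST2-/- cells lie between -0.13 and 0.24 for the 10 genes, while those of Cx3cr1CRExGata3fl/fl cells lie on the same side of 0 as those of wild-type cells.

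In cells labelled Cx3cr1CRExGata3fl/fl, IL-33 raised 8 of the 10 genes and lowered 2 relative to no cytokine, where 33.4% of all tested genes were called (17.1% higher and 16.3% lower). Over all genes 2471 were called higher and 2364 lower, against 2001 higher and 2985 lower with upper-quartile scaling, under which the counts for the 10 genes did not change. That scaling also moved the balance in wild-type cells, from 2676 higher and 2446 lower to 2251 and 3010 with IL-33. With IL-4 it moved from 3627 and 3263 to 3209 and 3718. For ST2-/- against wild-type cells with IL-33 it moved from 2593 and 2759 to 3098 and 2336. Clec4n had 145, 126 and 150 CPM with IL-33 and 4.30, 4.25 and 3.60 CPM without, a rise of 34.5-fold (log2 change 5.11 ± 0.16, adjusted p = 1.71e-15). Mgl2 had 152, 119 and 146 CPM with IL-33 and 7.68, 6.82 and 8.56 CPM without, a rise of 18.1-fold (adjusted p = 1.96e-15). The groups did not overlap for either gene, nor for the other 8, against 45% of tested genes. Clec4e (5.63-fold), Clec4a2 (2.53-fold), Clec4d (2.46-fold), Clec10a (2.31-fold), Mrc1 (2.27-fold) and Clec5a (1.69-fold) also rose. Clec12a and Clec7a fell by 0.63 and 0.44 on the log2 scale. Marker sums moved here too, at 715 to 779 CPM with IL-33 and 365 to 377 CPM without for monocytes, and 454 to 534 CPM with IL-33 and 172 to 194 CPM without for neutrophils, and their part was not tested.

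The response of Cx3cr1CRExGata3fl/fl cells was set against that of wild-type cells by the same interaction test. It was called for 2 of the 10 genes, where 1.22% of all tested genes were called (0.539% higher and 0.677% lower). The rise of Clec4n was larger in Cx3cr1CRExGata3fl/fl cells by 0.98 ± 0.22 on the log2 scale (adjusted p = 0.0296), and that of Mgl2 smaller, at a difference of -0.73 ± 0.18 (adjusted p = 0.0487). The Clec4n call was lost when any 1 of 8 of the 12 libraries was left out, with a difference of 0.92 to 1.04 and adjusted p = 0.0516 to 0.0872. These 8 were Cx3cr1CRExGata3fl/fl replicates 1 and 3 with IL-33 and all 3 without cytokine, wild-type replicate 2 with IL-33 and wild-type replicates 1 and 3 without cytokine. The Mgl2 call was lost for 10 of the 12, namely each library except wild-type replicate 3 with IL-33 and wild-type replicate 2 without cytokine, with a difference of -0.80 to -0.61 and adjusted p = 0.0564 to 0.149. Both calls were also lost with limma-voom (adjusted p = 0.138 for Clec4n and 0.187 for Mgl2). The Mgl2 call was lost in edgeR with the relative log expression scaling too (adjusted p = 0.0516). Over all alternatives the adjusted p ran from 3.5e-11 to 0.138 for Clec4n and from 1.02e-11 to 0.187 for Mgl2.

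Mrc1 (-0.64 ± 0.16, adjusted p = 0.0569) and Clec4a2 (-0.65 ± 0.17, adjusted p = 0.0563) just missed the threshold in that test. Mrc1 passed without Cx3cr1CRExGata3fl/fl replicate 2 or wild-type replicate 1 with IL-33 (-0.71 and -0.78, adjusted p = 0.0460 and 0.00589, over all alternatives 2.29e-15 to 0.201). Clec4a2 passed without either of these libraries or without untreated wild-type replicate 2 (-0.77 to -0.71, adjusted p = 0.0246 to 0.0477, over all alternatives 1.23e-10 to 0.176). Mrc1 also passed with DESeq2 (adjusted p = 0.044), and in edgeR with only the groups compared (0.0385) and with a replicate block (0.0227). Clec4a2 also passed with DESeq2 (adjusted p = 0.0082) and limma-voom (0.0497). In edgeR it passed with only the groups compared (0.0395) and with a replicate block (0.00231). For both genes the low end of the range came only from edgeR with no expression filter. Clec10a (-0.48), Clec4d (0.30), Clec5a (0.34) and Clec12a (-0.10) did not pass either. Clec10a passed only in edgeR with a replicate block (adjusted p = 0.0479) or no expression filter (3.01e-06). Clec4d passed only with DESeq2 (adjusted p = 0.0317), and in edgeR with a replicate block (0.0412) or no expression filter (0.0311). Clec5a and Clec12a passed under no alternative. The intervals of Clec7a (-0.28 to 0.23) and Clec4e (-0.40 to 0.48) spanned 0.

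With IL-33 in both, 6 of the 10 genes differed between Cx3cr1CRExGata3fl/fl and wild-type cells, 3 higher and 3 lower in Cx3cr1CRExGata3fl/fl cells, where 11.3% of all tested genes were called (5.5% higher and 5.85% lower). Clec10a had 186, 157 and 181 CPM in Cx3cr1CRExGata3fl/fl cells and 423, 365 and 320 CPM in wild-type cells, 2.11-fold lower (adjusted p = 1.33e-06). Mgl2 was 2.01-fold lower (adjusted p = 2e-06), and neither gene's libraries overlapped, as in 28.1% of tested genes. Clec4n was 1.71-fold higher in Cx3cr1CRExGata3fl/fl cells (adjusted p = 0.000199), Clec7a 1.43-fold (adjusted p = 0.000283) and Clec4d 1.27-fold (adjusted p = 0.000670). Mrc1 had 1168, 1330 and 1092 CPM in Cx3cr1CRExGata3fl/fl cells and 1220, 1689 and 1709 CPM in wild-type cells, so the groups overlapped. Its call (1.29-fold lower, adjusted p = 0.0451) was lost without Cx3cr1CRExGata3fl/fl replicate 1 or 3 or wild-type replicate 2 or 3 (log2 difference -0.35 to -0.28, adjusted p = 0.123 to 0.218, over all alternatives 1.19e-10 to 0.218). The Mrc1 call was also lost with DESeq2 (adjusted p = 0.0564) and in an edgeR fit of only the groups compared (adjusted p = 0.0737). Of 11 neutrophil markers 5 were higher and 1 lower in Cx3cr1CRExGata3fl/fl cells (median log2 difference 0.58). The dendritic cell sum was 227 to 263 CPM in Cx3cr1CRExGata3fl/fl cells and 140 to 222 CPM in wild-type cells, with none of 10 higher and 1 lower. The lymphocyte sum was 248 to 281 CPM in Cx3cr1CRExGata3fl/fl cells and 142 to 159 CPM in wild-type cells, with 2 of 7 higher and 1 lower. The part of these cells was not tested.

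Without cytokine, 4 of the 10 genes differed between Cx3cr1CRExGata3fl/fl and wild-type cells, 3 higher and 1 lower in Cx3cr1CRExGata3fl/fl cells, where 9.85% of all tested genes were called (5.6% higher and 4.25% lower). Clec7a had 500, 546 and 532 CPM in Cx3cr1CRExGata3fl/fl cells and 287, 416 and 380 CPM in wild-type cells, 1.46-fold higher (adjusted p = 0.000299). Clec10a had 80.8, 64.0 and 82.3 CPM in Cx3cr1CRExGata3fl/fl cells and 116, 110 and 119 CPM in wild-type cells, 1.52-fold lower (adjusted p = 0.00202). The libraries of the 2 groups did not overlap for either gene, as in 31% of tested genes. Clec4a2 was 1.45-fold higher (log2 difference 0.53 ± 0.12, adjusted p = 0.00642), a call lost without untreated wild-type replicate 1 (0.43, adjusted p = 0.0529, over all alternatives 3.33e-14 to 0.0529). Clec12a was 1.10-fold higher (adjusted p = 0.0410). That call was lost without any 1 Cx3cr1CRExGata3fl/fl library or wild-type replicate 1 or 3 (log2 difference 0.11 to 0.15, adjusted p = 0.0909 to 0.209, over all alternatives 0.0184 to 0.209). In edgeR it was also lost with the relative log expression scaling (adjusted p = 0.0511) and with no expression filter (adjusted p = 0.0863). Of 11 neutrophil markers 7 were higher in Cx3cr1CRExGata3fl/fl cells (median log2 difference 0.89), with sums of 172 to 194 CPM in Cx3cr1CRExGata3fl/fl cells and 122 to 135 CPM in wild-type cells. Monocyte marker sums were 365 to 377 CPM in Cx3cr1CRExGata3fl/fl cells and 278 to 323 CPM in wild-type cells, with 2 of 8 higher. Dendritic cell marker sums were 107 to 175 CPM in Cx3cr1CRExGata3fl/fl cells and 53.5 to 101 CPM in wild-type cells, with 2 of 10 higher. Lymphocyte marker sums were 303 to 312 CPM in Cx3cr1CRExGata3fl/fl cells and 171 to 202 CPM in wild-type cells, with 1 of 7 higher. The part of these cells was not tested.

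Over the 7 group means of log2 CPM, correlations between genes are given as a description, since the 7 points share cytokines and genotypes. Clec4n, Clec4d and Clec4e correlated with each other at 0.93 to 0.97, and Mrc1 with Clec4a2 at 0.98. Clec12a ran against Mgl2 (-0.98) and Clec5a (-0.95). Among other protein-coding genes, the closest to Mgl2 was Mgst1 (0.999), to Clec4n Acsl1 (0.997), to Clec4e Irak3 (0.997), to Clec12a Crim1 (0.998), to Clec7a Amz1 (0.996) and to Clec4d Snx18 and Cd302 (both 0.996). The closest to Clec10a was Hnrnpc (0.994), to Clec4a2 Tmem167 (0.993), to Clec5a Slmo2 (0.995), and to Mrc1 Reep3 (0.991).

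The remaining C-type lectin domain genes were taken as a list of 52, of which 32 were tested. In wild-type cells 16 rose and 5 fell with IL-33 (median log2 change 0.71, against -0.000909 over all tested genes), where 18.5% of all tested genes rose and 16.9% fell. With IL-4 7 rose and 10 fell (median -0.28, against 0.00477), where 25.1% of all tested genes rose and 22.5% fell. The largest rise with IL-33 was that of Vcan, which encodes the matrix proteoglycan versican, at 74.6 CPM with IL-33 and 4.11 CPM in untreated cells (18.1-fold). Clec4a1 (2.73-fold) and Clec4a3 (1.97-fold), paralogs of Clec4a2 in the same family, also rose. With IL-4, Clec4b1, another member of that family, rose 6.14-fold, and Cd302, Cd93 and Clec2i fell by 0.97, 0.92 and 0.92 on the log2 scale. The IL-33 response of Cx3cr1CRExGata3fl/fl cells differed from that of wild-type cells for 3 of the 32, where 1.22% of all tested genes were called: Clec4b1 (-1.91 ± 0.30, adjusted p = 0.00142), Clec4a3 (-0.58 ± 0.10, adjusted p = 0.00541) and Clec4a1 (-0.55 ± 0.11, adjusted p = 0.0191). Clec4b1 already differed without cytokine, at 7.39 CPM in Cx3cr1CRExGata3fl/fl cells and 2.90 CPM in wild-type cells (2.54-fold, adjusted p = 0.000208). With IL-33 it averaged 2.88 and 4.29 CPM.

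The adaptors and kinases below these receptors formed a list of 27 genes, all tested. In wild-type cells 8 rose and 8 fell with IL-33 (median log2 change -0.01, against -0.000909 over all tested genes), where 18.5% of all tested genes rose and 16.9% fell. With IL-4 7 rose and 16 fell (median -0.28, against 0.00477), where 25.1% of all tested genes rose and 22.5% fell. The Src-family kinase genes Src and Fgr rose with IL-33, Src to 15.0 CPM against 2.38 CPM in untreated cells (6.29-fold) and Fgr to 55.3 CPM against 10.6 CPM (5.23-fold). Src also rose with IL-4, to 9.25 CPM (3.89-fold), whereas Fgr averaged 7.64 CPM with IL-4. Cblb, a ubiquitin ligase gene, fell by 0.75 on the log2 scale with IL-33 and rose 2.12-fold with IL-4. Ptpn6, which encodes the phosphatase SHP-1 that inhibitory motifs recruit, fell by 0.93 on the log2 scale with IL-4. In the ST2-/- cells none of the 27 was called with IL-33 by edgeR, and 1 had an unadjusted p under 0.05.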

How the data were processed

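RNA of 21 libraries was sequenced in 150-base read pairs from 1 ug of RNA. The deposited values are read counts per gene. Tools named in the submitters' processing notes are HTSeq 0.6.1, DESeq2 1.22.2 and the aligner HISAT2 2.0.5, with GRCm38. The annotation and strandedness used for counting are not given in the sources used here. Of 47069 gene IDs, 46488 were matched to GENCODE M21, which gave positions and exon lengths. The lectin receptor genes, gene lists and comparisons were chosen with earlier results of these data known. Besides the 10 genes, up to 4 called list members with the largest change, label checks, and the genes closest over group means (average of at least 2 log2 CPM) were named. A list member that this rule names is not reported here.

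These counts entered edgeR 4.0.16 (R 4.3.3) as deposited: filterByExpr over the 7 groups, TMM scaling, 1 quasi-likelihood fit of all libraries with a mean per group (14 residual degrees of freedom, common coefficient of variation 0.0860), and Benjamini-Hochberg adjustment over 14473 genes, with calls at an adjusted p under 0.05. CPM use library sizes scaled by TMM. The test was tried on simulated counts. Alternatives were other scalings, no filter, DESeq2 1.42.0, limma-voom 3.58.1, only the groups compared, a replicate block, and each library left out.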

Additional observations from a re-analysis of the deposited data

Results flagged for a closer look

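The IL-33 response differed between ST2-/- and wild-type cells by the interaction test for 8 lectin receptor genes, where 22.7% of all tested genes were called. The difference in log2 change was -4.84 for Mgl2, -3.89 for Clec4n, -2.48 for Clec4e, -1.95 for Clec4a2, -1.61 for Clec10a, -1.58 for Mrc1, -0.98 for Clec4d and 0.52 for Clec12a. The IL-33 response differed between Cx3cr1CRExGata3fl/fl and wild-type cells for 2, Clec4n (0.98) and Mgl2 (-0.73), where 1.22% of all tested genes were called. Sex and genotype cannot be told apart for these 2. The Clec4n call was lost without any 1 of 8 of the 12 libraries, and the Mgl2 call without any 1 of 10. Groups of 3 libraries are too small for a test of single outlying libraries.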

How the results depend on the processing

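The 10 genes in 11 comparisons gave 110 log2 changes, each recomputed under the alternatives that applied, 1550 values under 28 settings. Of these, 1468 kept their side of the threshold, 43 lost a call, 39 gained one and no called change reversed its sign; 28 of the values that were not called on either side changed sign. All 10 genes were called under every alternative with another scaling, filter or tool for IL-33 against no cytokine in wild-type and in Cx3cr1CRExGata3fl/fl cells, for IL-4 against no cytokine, for IL-33 against IL-4, and for ST2-/- against wild-type cells with IL-33. With no expression filter, edgeR called 1 of the 10 genes for IL-33 in ST2-/- cells (Mrc1), where 70 of 24667 genes were called. It called 5 for ST2-/- against wild-type cells without cytokine, where 875 of 24667 were called. Adjusted p for several of the 10 genes were far smaller in that fit, and the low end of several ranges above rests on it. For the difference between the IL-33 responses of Cx3cr1CRExGata3fl/fl and wild-type cells it called 6, where 555 of 24667 were called. That last count was 2 in the report, where 176 of 14473 genes were called. It was 5 with DESeq2 (370 of 12233 genes), 1 with limma-voom (170 of 14473) and 1 with the relative log expression scaling (172 of 14473). It was 4 in a fit of only these groups (170 of 14012) and 6 with a replicate block (355 of 14473). Calls over all genes therefore also moved between settings, and the cause was not tested. With 1 library left out, the count among the 10 genes ran from 0 to 3 and that over all tested genes from 53 to 266. Leaving out 1 library gave 0 to 1 of the 10 genes for ST2-/- against wild-type cells without cytokine (57 to 215 of all tested genes). For Cx3cr1CRExGata3fl/fl against wild-type cells without cytokine it gave 2 to 4 (660 to 1231 of all tested genes). In 0 of the 21 pairs of groups did all same-numbered libraries deviate together at r over 0.1 (r from -0.04 to 0.11). This rule would miss weaker shared variation, so whether replicate numbers pair the libraries was not settled. A replicate block also gave 2 calls among the 10 genes for ST2-/- against wild-type cells without cytokine. Over all tested genes that block gave 590 calls there, against 196 in the main fit. For the difference between the responses of ST2-/- and wild-type cells it gave 9 of the 10 genes. Over all tested genes it gave 3545 calls for that difference, against 3284 in the main fit. Depth limits Clec4n with IL-4, at 32 to 56 counts per library.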
